A study of Mus musculus with 5 samples.

Results

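The MHC class II antigen presentation genes described here are H2-Aa, H2-Ab1, H2-Eb1, Cd74, H2-DMa, H2-DMb1, H2-DMb2 and Ciita, 8 of the 31053 genes counted. They were listed by the role of their products, and all 8 were detected. Their RNA was followed in 5 single-cell libraries of sorted mouse lung, in 3 classes of cells that were separated by a few defining genes. An AT2 cell held Sftpc as at least 5% of its UMIs (random tags that count each captured RNA molecule a single time), at least 1 Epcam UMI and no UMI of Cdh5, Pecam1 or Col1a2. An endothelial cell held at least 2 UMIs of Cdh5 and Pecam1 and none of Epcam or Col1a2, and a mesenchymal cell at least 2 UMIs of Col1a2 and none of the other 3.

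The study asked how loss of β1 integrin in type 2 alveolar epithelial (AT2) cells alters lung repair. Itgb1 iKO mice carried floxed Itgb1 alleles and an SP-C rtTA Tet-O-Cre transgene pair, so that doxycycline started Cre from the promoter of surfactant protein C, which is active in AT2 cells. Itgb1 fl/fl littermates had the same floxed alleles without rtTA or Cre, and both genotypes drank doxycycline, were kept off it for a month and, as 3-month-old adults on a C57BL/6 background, received a single intratracheal dose of LPS, a bacterial endotoxin that injures the alveoli, or PBS. The groups were Itgb1 fl/fl LPS and Itgb1 iKO LPS at 7 and at 21 days, and Itgb1 iKO PBS at 7 days. A PBS-treated Itgb1 fl/fl group was not analysed here. Each group was a single library of pooled mice with 3 hashtag antibodies in use, and the cells of a hashtag are called a mouse here, after sorting of viable CD45- Ter119- cells, and the 21-day libraries were enriched for EPCAM+ cells.

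The libraries held 9506636 to 31227849 UMIs, and 2224 to 8671 cells passed the filter (at least 700 genes, 0.1 to 15% mitochondrial UMIs). Levels are given as CPM, the UMIs of a gene per 1000000 UMIs of a class. At day 7 the LPS-treated Itgb1 fl/fl mice all expressed Xist (292 to 317 CPM) without Y-linked RNA, and the LPS-treated Itgb1 iKO mice all expressed Y-linked genes (147 to 157 CPM), so genotype, sex and library cannot be told apart there. At day 21 the genotypes differed less completely in sex, and the hashtag of mouse 1 of Itgb1 fl/fl carried both Xist (92.5 CPM) and Y-linked RNA (83.2 CPM), so that it may hold more than 1 animal. The libraries shared 15 to 102 barcodes per pair, at most 1.41% of the cells of the smaller one. Since each group was a single library, library and group cannot be told apart, and p-values measure the spread between mice within libraries.

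The targeted gene was lower in Itgb1 iKO AT2 cells at both days and passed the test at day 21 only. Itgb1 stood at 258, 235 and 305 CPM in the 3 LPS-treated Itgb1 fl/fl mice and at 214, 152 and 193 CPM in the 3 Itgb1 iKO mice at day 7, a log2 difference of -0.63 (SE 0.18) that missed the threshold with an adjusted p of 0.0863 in the edgeR test. At day 21 the values of Itgb1 were 356, 319 and 372 CPM against 141, 178 and 146 CPM, and Itgb1 fell by 1.29 on the log2 scale (SE 0.12, adjusted p = 1.14e-07). In endothelial cells, where the SP-C promoter is not active, the log2 differences of Itgb1 were 0.01 at day 7 and 0.12 at day 21 and passed at neither day.

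MHC class II molecules present peptides from the endosomal pathway to CD4+ T cells. H2-Aa and H2-Ab1 encode the α and β chains of the I-A molecule and H2-Eb1 the β chain of I-E. Cd74 encodes the invariant chain, which guides new class II molecules to the endosome and fills their groove, H2-DMa with H2-DMb1 or H2-DMb2 encodes the DM molecule that exchanges its remnant for peptide, and Ciita encodes the coactivator on which transcription of these genes depends. Dendritic cells, macrophages and B cells are the best-known sources, and AT2 cells are known for constitutive class II expression. C57BL/6 mice carry the H2-b haplotype, which makes no functional I-E α chain.

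In the GRCm38 assembly with GENCODE M21 annotation, 6 members lie within 197134 bases of chromosome 17. H2-DMa spans positions 34119541 to 34139101, H2-DMb2 34143307 to 34151555, H2-DMb1 34153072 to 34160230, H2-Ab1 34257689 to 34269419, H2-Aa 34282744 to 34287823 and H2-Eb1 34305867 to 34316674, of which H2-Aa alone is on the minus strand. Ciita lies on chromosome 16 from 10480059 to 10528418. H2-DMb1 and H2-DMb2 are neighbours and close copies: their main transcripts of 1404 and 1424 bases aligned over 1255 bases with 94.4% identity, and 26.8% of the 50-base stretches of H2-DMb2 occur in H2-DMb1. Reads from shared stretches could be split or dropped between the pair by the authors' counting, so the levels of both are uncertain.

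Class II promoters are known for a conserved module of X and Y boxes through which Ciita acts. The 200 bases before the annotated start of 4 members are shown because 3 of them carry the letters searched for that module, while H2-Aa holds only those of the Y box, and because H2-DMb1 and H2-DMb2 behaved differently below (sequences from RefSeq, GRCm38.p6, 5′ to 3′ on the strand of the gene). Capitals mark the first match of each motif on the strand of the gene, and the matches do not overlap. The motifs are an X box-like one (the longer run, which allows any base at its 4th position) and TGATTGG, a Y box with its flank. Both strands were searched for the counts over promoter windows below. The letters were chosen after the members' own sequences had been seen and do not cover other forms of the X box.
H2-DMb1 (chr17:34152991-34153190, plus strand): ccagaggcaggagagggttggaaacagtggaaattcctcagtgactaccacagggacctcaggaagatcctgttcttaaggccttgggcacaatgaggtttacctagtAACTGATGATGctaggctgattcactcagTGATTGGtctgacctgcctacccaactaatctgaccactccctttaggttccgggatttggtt
H2-DMb2 (chr17:34145049-34145248, plus strand): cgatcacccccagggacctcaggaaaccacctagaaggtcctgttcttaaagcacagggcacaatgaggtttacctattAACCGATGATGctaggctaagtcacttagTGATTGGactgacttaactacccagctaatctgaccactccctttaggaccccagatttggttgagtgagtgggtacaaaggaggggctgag
H2-Eb1 (chr17:34305667-34305866, plus strand): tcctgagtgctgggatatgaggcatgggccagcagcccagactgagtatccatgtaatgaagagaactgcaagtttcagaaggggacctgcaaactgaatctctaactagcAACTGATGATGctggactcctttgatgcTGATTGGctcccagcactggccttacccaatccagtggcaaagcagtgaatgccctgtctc
H2-Aa (chr17:34287824-34288023, minus strand): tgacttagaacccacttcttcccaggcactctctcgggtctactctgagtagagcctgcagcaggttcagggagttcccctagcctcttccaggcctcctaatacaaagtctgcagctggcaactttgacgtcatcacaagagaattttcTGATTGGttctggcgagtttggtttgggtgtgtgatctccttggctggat

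The RefSeq promoter table held 5 of the 8 members. Of its 32851 promoter windows of 300 bases, 20 (0.0609%) held the X box-like motif and 2568 (7.82%) held TGATTGG. The X box-like motif followed by TGATTGG within 40 bases occurred in 3 windows (0.00913%), those of H2-DMb1, H2-DMb2 and H2-Eb1. The distance between both motifs was 18 bases in H2-DMb1 and in H2-DMb2 and 17 bases in H2-Eb1. The module starts 92 bases before the start in H2-DMb1, 121 bases in H2-DMb2 and 89 bases in H2-Eb1. Over 250 upstream bases H2-DMb1 and H2-DMb2 aligned with 83.3% identity, and both copies carried the module. The windows of H2-DMa, the remaining member of the 5, held neither motif and are not shown.

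All 8 genes were highest in AT2 cells, intermediate in endothelial cells and lowest in mesenchymal cells in most libraries. Cd74 stood at 7223 to 11752 CPM in AT2 cells, 1577 to 3998 CPM in endothelial cells and 42.7 to 324 CPM in mesenchymal cells over the 5 libraries. H2-Aa ranged from 1208 to 2206 CPM in AT2 cells, from 353 to 866 CPM in endothelial cells and from 10.3 to 56.2 CPM in mesenchymal cells. AT2 cells were above endothelial cells in 37 of 40 pairs of gene and library. The exceptions were Ciita in Itgb1 fl/fl LPS at day 7 (12.3 against 13.7 CPM) and in Itgb1 iKO PBS (11.7 against 23.8 CPM) and H2-DMa in Itgb1 iKO PBS (70.1 against 96.6 CPM), where AT2 cells numbered only 26.

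**Figure D1:**
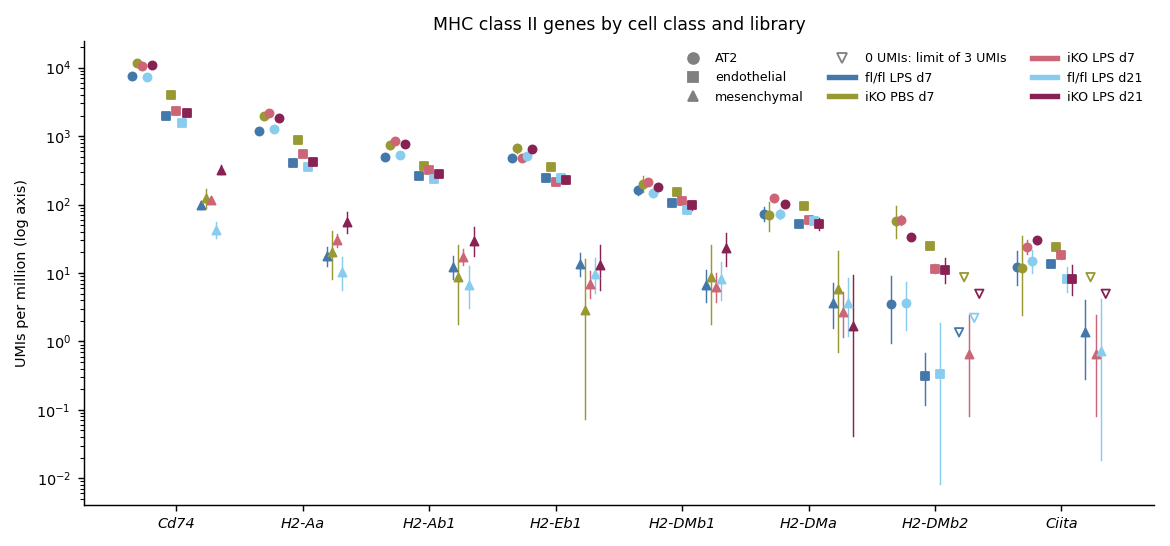
CPM (log axis) of the 8 genes in AT2, endothelial and mesenchymal cells of the 5 libraries, with exact 95% Poisson intervals that cover counting error only. Open triangles mark genes with 0 UMIs at the limit of 3 UMIs, and Cd74 lies between 7223 and 11752 in AT2 cells against 42.7 to 324 in mesenchymal cells.

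Tested over the 6 LPS-treated mice of each day, with each mouse as a block, all 8 genes were higher in AT2 than in endothelial cells at both days, where 26.6% of all genes tested were higher at day 7 and 34.2% at day 21. The log2 difference of Cd74 was 2.62 (SE 0.18, adjusted p = 3.26e-16) at day 7 and 2.73 (SE 0.22, adjusted p = 1.54e-11) at day 21. For H2-Aa it was 2.27 and 2.40, for H2-Ab1 1.67 and 1.73 and for H2-Eb1 1.70 and 1.70. The smallest was that of Ciita at day 7 (0.84, SE 0.27, adjusted p = 6.71e-03), which was 1.57 at day 21, and that of H2-DMa at day 21 (0.95, SE 0.16, adjusted p = 7.49e-06). The median of the 8 log2 differences was 1.69 at day 7 and 1.71 at day 21, beside -0.19 and -0.02 over all genes tested.

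The genes also differed in how evenly cells carried them. Every AT2 cell of every library held a Cd74 UMI (100%), against 50.5 to 75.4% of endothelial and 13.9 to 58.8% of mesenchymal cells. AT2 cells were deeper, with median UMIs of 7615 to 11251 against 1993 to 2490 in endothelial and 3054 to 4590 in mesenchymal cells. With each cell thinned to 1500 UMIs, Cd74 was found in 99.4 to 100% of AT2, 43.7 to 63.3% of endothelial and 5.26 to 40.7% of mesenchymal cells, and 0 to 2 AT2 cells, 229 to 1764 endothelial and 14 to 40 mesenchymal cells per library were too shallow to be thinned. Thinned, the share of cells with a UMI was higher in AT2 than in endothelial cells in 37 of 40 pairs. Mesenchymal cells are not known for class II expression, and the source of their UMIs was not tested.

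In the thinned cells, H2-Aa, H2-Ab1, H2-Eb1 and Cd74 together gave a median of 13 to 21.5 UMIs per AT2 cell and of 1 to 3 per endothelial cell. The spread between cells differed in the opposite sense. The Fano factor (variance over mean) of that sum was 1.95 to 5.79 in AT2 cells and 9.99 to 16.1 in endothelial cells. In Itgb1 iKO PBS, 28.1% of endothelial cells had none of these UMIs, while the 90th percentile was 28. In AT2 cells of Itgb1 fl/fl LPS at day 7 the same sum was 7 at the 10th and 21 at the 90th percentile.

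Endothelial cells were therefore also split by capillary markers, a division made after the data were seen. Cells with Gpihbp1, a lipase anchor of general capillaries, and no Car4 UMI held Cd74 at 2657 to 5484 CPM in the 5 libraries. Cells with Car4, a carbonic anhydrase of aerocytes, and no Gpihbp1 UMI held Cd74 at 281 to 752 CPM. Cd74 was higher in the Gpihbp1 cells in all 5 libraries.

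The proportions of the genes to each other differed between the classes more than their order did. Per 100 Cd74 UMIs, H2-Aa had 16.1 to 21.1 UMIs in AT2 cells and 19.3 to 23.7 in endothelial cells. H2-Ab1 had 6.36 to 8.02 per 100 in AT2 and 9.28 to 14.8 in endothelial cells, and H2-Eb1 4.53 to 7.14 against 8.80 to 15.5. H2-DMb1 had 1.65 to 2.13 against 3.81 to 5.37, and H2-DMa 0.596 to 1.17 against 2.39 to 3.66. The ranges did not overlap for H2-Ab1, H2-Eb1, H2-DMb1 and H2-DMa, so that Cd74 made up more of the class II RNA in AT2 cells.

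Leukocyte RNA was scarce in these classes. The defining AT2 markers left out of the gate summed to 62595 to 73078 CPM in AT2 cells, and all 10 were detected in every library. Ptprc, which encodes CD45, had 0 UMIs in the AT2 cells of all 5 libraries, and the 24 leukocyte markers summed to 24.5 to 38.9 CPM there, with 1 to 6 of them detected. Of this sum 23.6 to 35.1 CPM came from the B cell list, whose Ms4a1 was at 0 in every library and whose Cd79b gave nearly all of it in both genotypes. The macrophage list reached at most 3.89 CPM, the dendritic cell list 0.0930 CPM and the T cell list 0 CPM in AT2 cells. In endothelial cells the leukocyte markers summed to 3.91 to 16.5 CPM, highest in Itgb1 fl/fl LPS at day 7.

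In AT2 cells the chains of the I-A molecule were higher in Itgb1 iKO than in Itgb1 fl/fl mice after LPS. H2-Aa stood at 1265, 1112 and 1138 CPM in the 3 Itgb1 fl/fl mice and at 2109, 2416 and 1904 CPM in the 3 Itgb1 iKO mice at day 7. At day 21 the values of H2-Aa were 1140, 1639 and 1139 CPM against 1708, 2261 and 1671 CPM. The genotypes did not overlap at either day, although at day 21 mouse 2 of Itgb1 fl/fl was close to the lowest Itgb1 iKO mice. H2-Aa rose at day 7 (log2 difference 0.77, SE 0.16, adjusted p = 0.0167) and did not pass at day 21 (0.42, SE 0.13, adjusted p = 0.0765). The call at day 7 was lost without mouse 2 of Itgb1 fl/fl and without mouse 1 or mouse 2 of Itgb1 iKO.

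H2-Ab1, the partner chain, stood at 529, 463 and 443 CPM against 908, 910 and 735 CPM at day 7. At day 21 it stood at 451, 684 and 505 CPM against 799, 868 and 743 CPM. The genotypes were again apart at both days. H2-Ab1 passed at day 7 (log2 difference 0.72, SE 0.16, adjusted p = 0.0242) and at day 21 (0.45, SE 0.12, adjusted p = 0.0311). These calls of H2-Ab1 depended on single mice, since only leaving out mouse 3 of Itgb1 iKO at day 7 and mouse 2 of Itgb1 fl/fl at day 21 kept them.

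H2-Eb1 differed from the I-A genes. It stood at 490, 506 and 443 CPM in Itgb1 fl/fl and at 1014, 420 and 269 CPM in Itgb1 iKO mice at day 7, and at 448, 641 and 475 CPM against 811, 502 and 722 CPM at day 21. Itgb1 iKO mouse 1 at day 7 was above every Itgb1 fl/fl mouse and mice 2 and 3 were below them, so the groups overlapped. The log2 difference of H2-Eb1 was 0.10 (SE 0.30, adjusted p = 0.938) at day 7, was -0.55 without that mouse, and was 0.28 (SE 0.15, adjusted p = 0.367) at day 21.

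Cd74, the invariant chain, lies on chromosome 18 from 60803848 to 60812652 (GRCm38) and was the member with the most UMIs. It stood at 7514, 6860 and 7874 CPM in Itgb1 fl/fl against 12730, 10314 and 9338 CPM in Itgb1 iKO mice at day 7. At day 21 it stood at 6703, 8468 and 6920 CPM against 11314, 11198 and 10833 CPM, a mean of 7364 ± 963 against 11115 ± 251 (SD, n = 3). The genotypes did not overlap, and the Itgb1 iKO mice at day 21 lay close together. Of these, mouse 3 held 302 AT2 cells, but 46 when hashtags were called by a ratio of 3 to the second tag, so its cells are uncertain. The log2 difference of Cd74 was 0.45 (SE 0.15, adjusted p = 0.168) at day 7, which missed the threshold, and 0.48 (SE 0.10, adjusted p = 3.72e-03) at day 21. Cd74 passed at day 21 without each of the 6 mice.

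**Figure D2:**
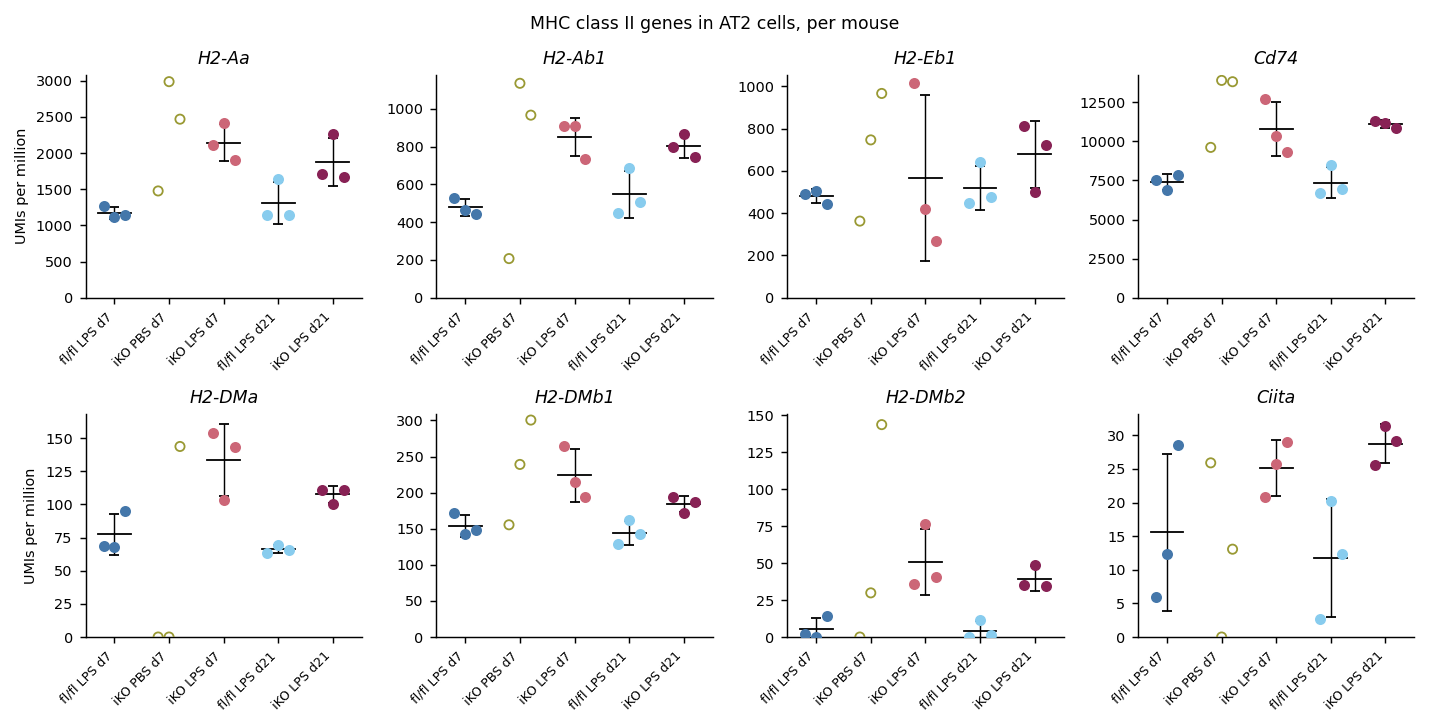
CPM of the 8 genes in AT2 cells, 1 point per mouse, with bars for the mean and SD of the mice with at least 10 AT2 cells and open points for mice with fewer. For Cd74 the Itgb1 iKO mice at day 21 lie between 10833 and 11314 and the Itgb1 fl/fl mice between 6703 and 8468, whereas for H2-Eb1 at day 7 the Itgb1 iKO mice spread from 269 to 1014 around the Itgb1 fl/fl mice.

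Among the DM genes, H2-DMb2 showed the largest difference of the 8. The AT2 cells of the 3 Itgb1 fl/fl mice at day 7 held 1, 0 and 3 H2-DMb2 UMIs (1.97, 0 and 14.3 CPM) and those of the 3 Itgb1 iKO mice 12, 65 and 21 (35.6, 76.2 and 40.6 CPM). At day 21 the counts were 0, 4 and 1 (0, 11.6 and 1.37 CPM) against 79, 111 and 93 (34.9, 49.0 and 34.4 CPM). Every Itgb1 iKO mouse was above every Itgb1 fl/fl mouse. H2-DMb2 rose by a log2 difference of 3.44 at day 7 (SE 0.61, adjusted p = 3.17e-03) and of 3.37 at day 21 (SE 0.50, adjusted p = 1.75e-04). At day 7 the call was lost without mouse 1 of Itgb1 fl/fl or without mouse 2 of Itgb1 iKO, and at day 21 it held without each mouse.

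The other β chain gene, H2-DMb1, moved less. It stood at 171, 142 and 148 CPM against 264, 215 and 193 CPM at day 7 and at 129, 162 and 142 CPM against 194, 172 and 187 CPM at day 21. The genotypes did not overlap, but the log2 differences of H2-DMb1, 0.40 (SE 0.18, adjusted p = 0.372) and 0.25 (SE 0.13, adjusted p = 0.351), did not pass. H2-DMb2 UMIs per 100 H2-DMb1 UMIs were 0 to 9.68 in the 6 Itgb1 fl/fl mice and 13.5 to 35.5 in the 6 LPS-treated Itgb1 iKO mice.

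H2-DMa, the α chain, stood at 68.9, 67.9 and 95.2 CPM against 154, 103 and 143 CPM at day 7. At day 21 it stood at 63.3, 69.6 and 65.7 CPM against 111, 100.3 and 111 CPM. The groups did not overlap at either day, with a log2 difference of 0.68 (SE 0.23, adjusted p = 0.177) at day 7 and a rise of 0.59 (SE 0.15, adjusted p = 0.0277) at day 21. Ciita, the coactivator, was counted thinly, at 5.90, 12.4 and 28.6 CPM against 20.8, 25.8 and 29.0 CPM at day 7 and at 2.64, 20.3 and 12.3 CPM against 25.7, 31.4 and 29.2 CPM at day 21. The Ciita groups overlapped at day 7 and not at day 21. Its log2 differences were 0.92 (SE 0.49, adjusted p = 0.462) and 1.19 (SE 0.35, adjusted p = 0.0567).

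Counted together, 3 of the 8 genes were called in AT2 cells at day 7 (H2-Aa, H2-Ab1 and H2-DMb2), all higher in Itgb1 iKO, where 1.7% of the 5062 genes tested were called and 0.79% were called higher. At day 21, 4 of 8 were called (Cd74, H2-Ab1, H2-DMa and H2-DMb2), all higher, where 3.75% of 8807 genes were called and 1.46% higher. All 8 log2 differences were above 0 at both days, with a median of 0.70 at day 7 and 0.47 at day 21, beside -0.00 and 0.00 over all genes tested. Every Itgb1 iKO mouse was above every Itgb1 fl/fl mouse for 6 of the 8 genes at day 7, as for 12.6% of all genes tested, and for 7 at day 21, as for 18.4%. In the exact two-sided permutation test of the CPM values each of these gave p = 0.1, the smallest that 3 against 3 mice allow. Without mouse 1 of Itgb1 fl/fl at day 21, whose hashtag carried RNA of both sexes, Cd74 and H2-DMb2 were called. Mouse 1 of Itgb1 iKO at day 21 carried Xist (145 CPM) and mice 2 and 3 Y-linked RNA, and the part of sex in the genotype difference was not tested. At day 7 the members called after leaving out a mouse ranged from 0 (without mouse 2 of Itgb1 iKO) to 3, and 0 passed once AT2 cells with a UMI of any of 17 leukocyte markers were left out (26 of 119 in Itgb1 fl/fl and 78 of 355 in Itgb1 iKO), where 6 members were tested, H2-Aa at 0.73 (adjusted p = 0.0615) and H2-Ab1 at 0.69 (adjusted p = 0.0753). The same step gave 5 calls at day 21.

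The difference between the genotypes was not shown to change with time. Of the 8 genes, 0 were called for a difference between day 7 and day 21 in edgeR, where 0.63% of genes were called, 0 had an unadjusted p under 0.05 and 0 were called by DESeq2. The median of their day 7 minus day 21 differences was 0.10 on the log2 scale.

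Within Itgb1 iKO AT2 cells, class II levels were set beside Itgb1 itself, a division made after the data were seen. At day 21 the 401 Itgb1 iKO cells with no Itgb1 UMI held Cd74 at 11850 CPM and the 839 cells with an Itgb1 UMI at 10410 CPM. At day 7 the values of Cd74 were 11130 CPM in 131 cells and 10160 CPM in 224 cells. H2-DMb2 stood at 80.0 against 49.7 CPM at day 7 and at 31.7 against 34.8 CPM at day 21. Cells with an Itgb1 UMI were thus also above the Itgb1 fl/fl libraries, whose AT2 cells held Cd74 at 7526 and 7223 CPM and H2-DMb2 at 3.53 and 3.63 CPM. A cell without an Itgb1 UMI need not lack the gene, a cell with an Itgb1 UMI need not have kept it intact, and the values have no test.

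**Figure D3:**
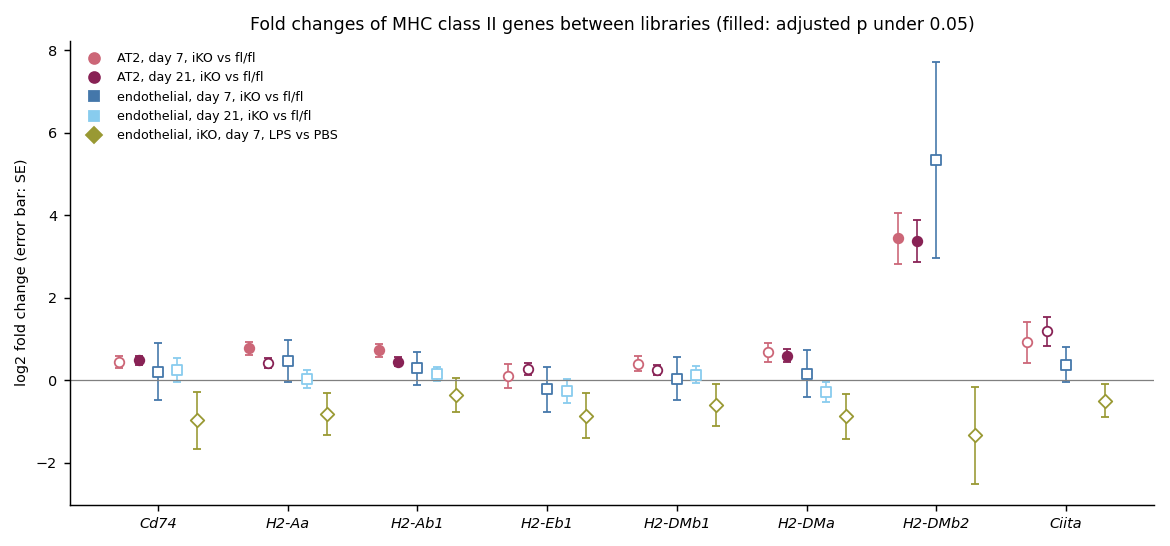
log2 fold change with SE (edgeR) of the 8 genes in AT2 cells between genotypes at both days and in endothelial cells between genotypes and between LPS and PBS. Filled points passed an adjusted p of 0.05, and H2-DMb2 in AT2 cells lies at 3.44 and 3.37 while the endothelial points are all open.

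In endothelial cells none of the 8 genes was called between the genotypes, and the mice of a group differed widely from each other. At day 7, 0 of 8 genes were called in edgeR, where 2.1% of 11650 genes were called, with 1 member (H2-DMb2) at an unadjusted p under 0.05 and 0 called by DESeq2. Cd74 stood at 1638, 1541 and 3005 CPM in Itgb1 fl/fl and at 3209, 1044 and 2957 CPM in Itgb1 iKO LPS mice. H2-Aa stood at 357, 355 and 526 CPM against 644, 340 and 740 CPM, and H2-Eb1 at 226, 217 and 331 CPM against 413, 78.9 and 179 CPM. Mouse 2 of Itgb1 iKO was the lowest for each of these 3 genes, and the groups overlapped. The log2 differences were 0.21 for Cd74 (SE 0.69), 0.46 for H2-Aa (SE 0.51) and -0.22 for H2-Eb1 (SE 0.55).

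At day 21 the 6 members that passed the filter on low counts gave 0 calls in edgeR, where 1.79% of 7259 genes were called, with 0 members at an unadjusted p under 0.05 and 0 called by DESeq2. Cd74 stood at 3941, 933 and 1633 CPM in Itgb1 fl/fl and at 2628, 2445 and 2608 CPM in Itgb1 iKO mice. The Itgb1 iKO mice lay close together within the range of the Itgb1 fl/fl mice, of which mouse 1 was the highest of all. The log2 difference of Cd74 was 0.25 (SE 0.30, adjusted p = 0.810). Without mouse 1 of Itgb1 fl/fl, Cd74 was called at 1.01 and H2-Aa at 0.53. Over both days, 0 of 8 genes were called for a change of the genotype difference with time (0.947% of genes, 0 by DESeq2, 0 at an unadjusted p under 0.05).

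The genotype difference in AT2 cells was also compared with that in endothelial cells of the same mice. At day 7, 0 of 8 genes were called for this difference of differences, where 1.26% of genes were called. At day 21, 0 of 8 were called, where 1.95% of genes were called. DESeq2 called 0 at both days, and 4 genes had an unadjusted p under 0.05 at day 7 (H2-Ab1, H2-Eb1, H2-DMa and H2-DMb1) and 2 at day 21 (H2-Eb1 and H2-DMa). The median log2 difference over the 8 genes was 0.51 at day 7 and 0.30 at day 21, beside 0.06 and -0.02 over all genes tested. A larger genotype difference in AT2 than in endothelial cells was therefore not shown for any of the 8 genes, although leaving out single mice gave 0 to 2 calls at day 7 and 0 to 4 at day 21. In endothelial cells after LPS the 10 AT2 markers summed to 1487 CPM in Itgb1 iKO and 1098 CPM in Itgb1 fl/fl at day 7. At day 21 they summed to 3925 and 893 CPM. The part of AT2 RNA in the endothelial class II values was not tested. The direction of the difference of differences at day 21 depended on the mouse left out. Without mouse 2 of Itgb1 fl/fl 4 genes were called higher, and without mouse 1 of Itgb1 fl/fl Cd74 was called lower (-0.63, SE 0.13, adjusted p = 1.02e-04) and the median was -0.13.

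LPS against PBS could be tested in endothelial cells of Itgb1 iKO mice at day 7 only, where the PBS mice spread the most. Cd74 stood at 548, 8537 and 4116 CPM after PBS, and H2-Aa at 251, 1771 and 809 CPM. The endothelial cells of mouse 1 were the lowest and those of mouse 2 the highest of all 15 mice for both genes. Over all its cells PBS mouse 1 carried Xist at 199 CPM and Y-linked RNA at 5.92 CPM. PBS mice 2 and 3 carried Y-linked RNA at 136 and 147 CPM, like the LPS-treated Itgb1 iKO mice of that day. Sex was thus not balanced between LPS and PBS, and its part was not tested. In edgeR 0 of 8 genes were called, where 26.9% of genes were called, with 0 members at an unadjusted p under 0.05 and 0 called by DESeq2. All 8 log2 differences were below 0, with a median of -0.84 beside 0.02 over all genes, and that of Cd74 was -0.97 (SE 0.70, adjusted p = 0.333). Without mouse 1 of the PBS group, Cd74 and 3 other genes were called lower (H2-DMa at -1.35, H2-Aa at -1.27 and H2-DMb1 at -1.07), without mouse 1 of the LPS group H2-Eb1 was called at -1.67, and without mouse 2 of the PBS group H2-DMb2 was called at 3.18.

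**Figure D4:**
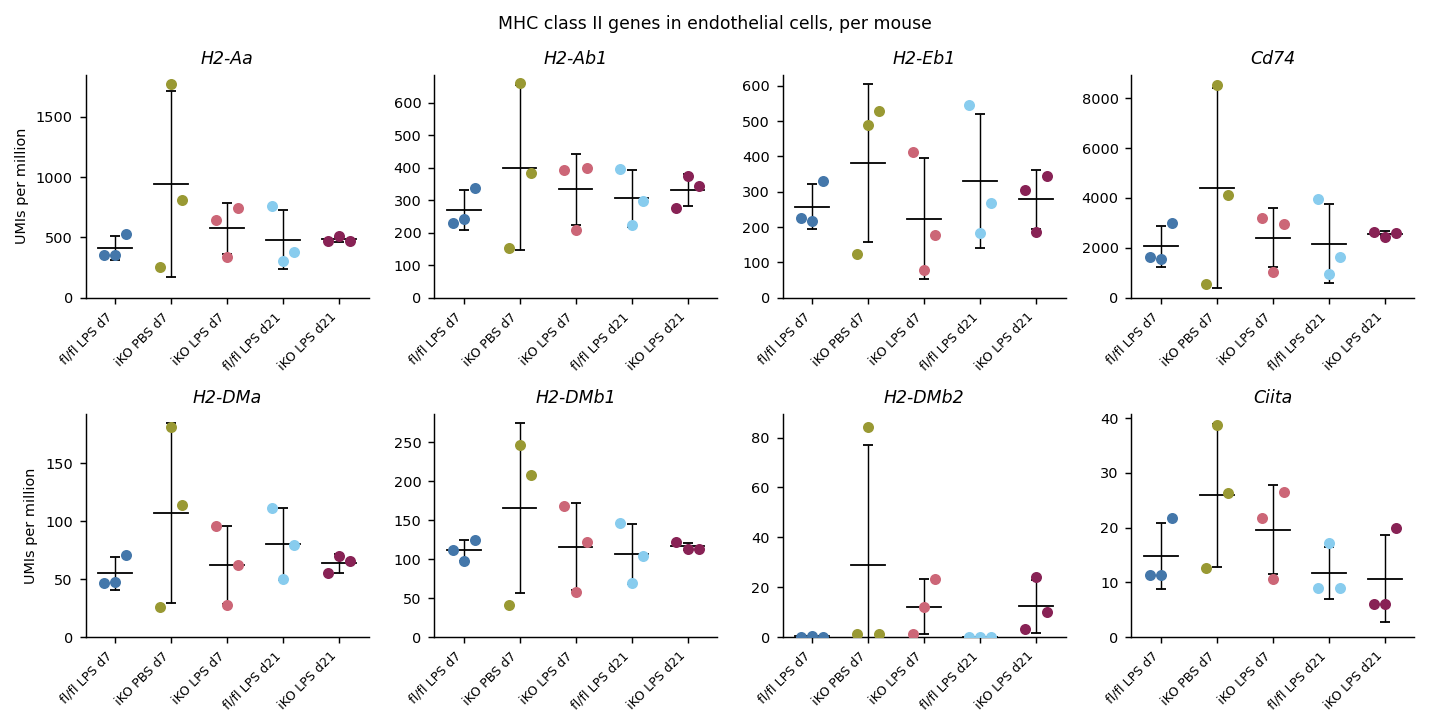
CPM of the 8 genes in endothelial cells, 1 point per mouse, with bars for the mean and SD of 3 mice. The PBS-treated Itgb1 iKO mice spread from 548 to 8537 for Cd74, and H2-DMb2 is at most 0.407 in the 3 Itgb1 fl/fl mice at day 7 and has 0 UMIs in those at day 21.

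H2-DMb2 set endothelial cells of single mice apart. The 3 Itgb1 fl/fl mice at day 7 held 1, 2 and 1 UMIs (0.198, 0.407 and 0.208 CPM) and the 3 at day 21 none. The Itgb1 iKO LPS mice held 5, 47 and 86 UMIs at day 7 (1.34, 11.9 and 23.4 CPM) and 1, 16 and 5 at day 21 (3.05, 23.9 and 9.95 CPM), and the PBS mice 8, 427 and 6 (1.29, 84.4 and 1.17 CPM). At day 7 all 6 Itgb1 iKO mice were above the 3 Itgb1 fl/fl mice in H2-DMb2. LPS mouse 1 and PBS mice 1 and 3 were so by only 5, 8 and 6 UMIs, and their place is uncertain by counting error. The share of all genes apart in this way was not counted in endothelial cells. At day 21 a count of 0 in the Itgb1 fl/fl mice allows up to 5.41, 5.75 and 3.83 CPM, so that Itgb1 iKO mouse 1 there, with a single UMI, cannot be set above them. At day 7 the log2 difference of H2-DMb2 between the LPS-treated genotypes was 5.34 (SE 2.38, adjusted p = 0.30), and at day 21 H2-DMb2 did not pass the filter on low counts, without which it was called at 6.00 (adjusted p = 4.9e-05). Without mouse 2 of the PBS group, which shares the fit, H2-DMb2 was called at day 7 at 5.34 (adjusted p = 0.0221).

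Endothelial H2-DMb2 was set beside AT2 H2-DMb2 in the same mice and beside AT2 markers per library. AT2 cells of Itgb1 iKO LPS mouse 1 at day 7 held H2-DMb2 at 35.6 CPM while its endothelial cells held 1.34 CPM. In mice 2 and 3 of that group AT2 cells held 76.2 and 40.6 CPM and endothelial cells 11.9 and 23.4 CPM. At day 21 AT2 cells of the Itgb1 iKO mice held 34.9, 49.0 and 34.4 CPM and their endothelial cells 3.05, 23.9 and 9.95 CPM. In PBS mouse 2 the endothelial cells held 84.4 CPM. The 10 AT2 markers, which include Abca3, summed to 378 CPM in the endothelial cells of the PBS library, the lowest of the 5 libraries. They summed to 1098 CPM in Itgb1 fl/fl and 1487 CPM in Itgb1 iKO LPS at day 7 and to 893 and 3925 CPM at day 21. The part of AT2 RNA in the endothelial H2-DMb2 values was not tested at either day. In mesenchymal cells H2-DMb2 had 2 UMIs in Itgb1 iKO LPS at day 7 and 0 in the other 4 libraries, which allows up to 1.36 to 8.67 CPM.

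H2-Eb1 and the class I gene H2-D1, which starts at position 35262730 of the same chromosome, were set beside H2-DMb2 in the endothelial cells of the 15 mice, H2-Eb1 as a ratio to Cd74. Of 6924 genes, H2-D1 was the one most like endothelial H2-DMb2 over these same mice (Pearson r of 0.75), so its match to H2-DMb2 here is no separate evidence. The mice were divided into 4 and 11 on these values. The highest H2-DMb2 level, 84.4 CPM in PBS mouse 2, came with 5.74 H2-Eb1 UMIs per 100 Cd74 UMIs and H2-D1 at 10099 CPM. The next were mouse 2 of Itgb1 iKO LPS at day 21 (7.58 per 100 and 6876 CPM) and mice 3 (6.04 per 100 and 7808 CPM) and 2 (7.55 per 100 and 7316 CPM) at day 7. The ratio of PBS mouse 2 was low beside Cd74 at 8537 CPM, since H2-Eb1 itself stood at 490 CPM, among the highest of the 15. In the other 11 mice H2-DMb2 was at most 9.95 CPM, H2-Eb1 had 11.03 to 22.7 UMIs per 100 Cd74 UMIs and H2-D1 stood at 4085 to 5785 CPM. The 4 mice are male by their Y-linked RNA and so are 3 of the other 11, among them Itgb1 iKO LPS mouse 1 at day 7, with 12.9 H2-Eb1 UMIs per 100 Cd74 UMIs and H2-D1 at 4670 CPM. In AT2 cells the lowest H2-Eb1 ratios of the 12 tested mice were 2.88 and 4.07 per 100 in mice 3 and 2 of Itgb1 iKO LPS at day 7 and 4.48 in mouse 2 at day 21, the same 3 mice.

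**Figure D5:**
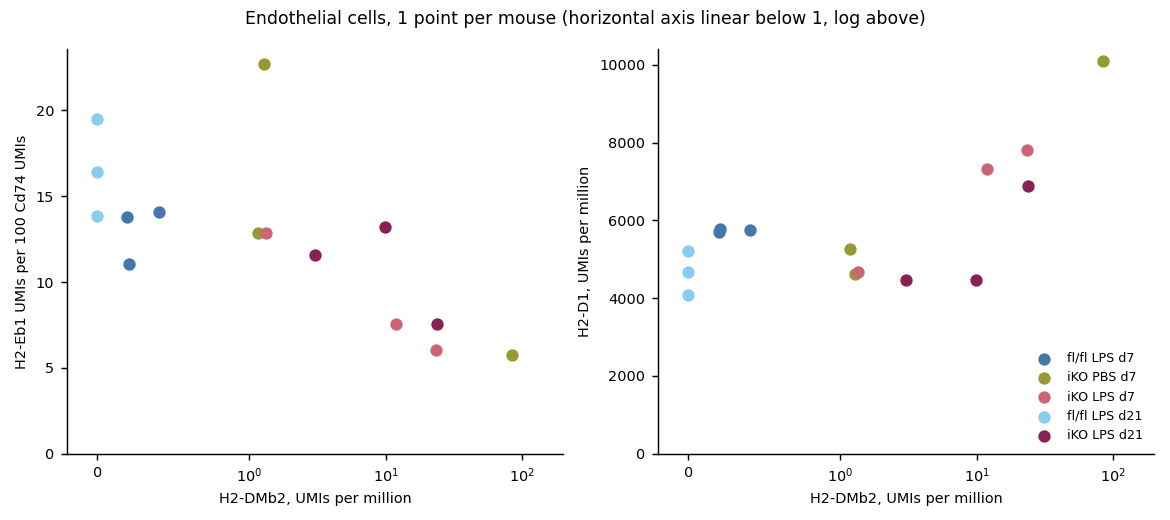
H2-Eb1 UMIs per 100 Cd74 UMIs (left) and H2-D1 in CPM (right) against H2-DMb2 in CPM (linear below 1, log above) in endothelial cells, 1 point per mouse. H2-D1 was the gene most like H2-DMb2 across these same mice. The 4 mice with H2-DMb2 at 11.9 or more lie at 5.74 to 7.58 on the left and at 6876 to 10099 on the right, and the other 11 at 11.03 or more and at 5785 or less.

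Mesenchymal cells gave no call. At day 7, H2-Aa (0.67) and Cd74 (0.17) could be tested and 0 of 2 passed in edgeR, where 0.102% of genes were called, with 0 at an unadjusted p under 0.05 and 0 called by DESeq2. At day 21 Cd74 was tested over 5 mice, since mouse 3 of Itgb1 iKO had under 10 such cells, and stood at 67.2, 105 and 26.9 CPM in Itgb1 fl/fl and at 415 and 266 CPM in Itgb1 iKO mice. Its log2 difference was 2.41 (SE 0.47, unadjusted p = 3.14e-04, adjusted p = 0.0703 in edgeR), so that 0 of 1 passed where 0.397% of genes were called, and DESeq2 gave no adjusted value. The 10 AT2 markers summed to 1963 CPM in the mesenchymal cells of that Itgb1 iKO library against 121 to 474 CPM in the other 4, and their part in the Cd74 value was not tested. The library had 1240 AT2 cells of 3035 cells.

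Of the class II regulators, 0 of 8 tested were called in AT2 cells at day 7, where 1.7% of all genes were called, and 2 of 13 at day 21, where 3.75% were. Jak2, a kinase of the interferon gamma receptor, stood at 44.8, 49.3 and 43.8 CPM in Itgb1 fl/fl and at 85.4, 95.4 and 92.8 CPM in Itgb1 iKO mice at day 21 and rose by 0.89 on the log2 scale (SE 0.17, adjusted p = 2.54e-03). Irf1, an interferon-induced transcription factor, stood at 50.1, 55.1 and 39.7 CPM against 90.7, 78.6 and 75.03 CPM and rose by 0.70 (SE 0.19, adjusted p = 0.0369). Rfx5, Rfxank and Rfxap, the subunits of the X box factor, were not called at day 21, with log2 differences of 0.40, 0.46 and -0.23. The NF-Y subunits Nfya, Nfyb and Nfyc, which bind the Y box, stood at 0.10, -0.13 and -0.07 and were not called. The list's median was 0.52 at day 7 and 0.42 at day 21.

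Interferon gamma, made by T and NK cells, is the best-known inducer of Ciita. Of its response genes 0 passed the filter in AT2 cells at day 7 and 3 at day 21, of which 1 was called, where 3.75% of all genes were. Cxcl10, a chemokine, had 0, 2 and 1 UMIs in Itgb1 fl/fl and 69, 42 and 65 UMIs in Itgb1 iKO mice at day 21 and rose by 3.40 on the log2 scale (SE 0.59, adjusted p = 8.82e-04). In endothelial cells at day 21 the list went the other way, with 2 of 7 called, where 1.79% of all genes were, and all 7 log2 differences below 0. Iigp1 fell by 0.97 (SE 0.19, adjusted p = 0.0115) and Irgm1, another interferon-induced GTPase, fell by 0.92 (SE 0.21, adjusted p = 0.0267). Irf1 fell by 0.58 there (SE 0.14, adjusted p = 0.0404), and the genotype difference of Irf1 was larger in AT2 than in endothelial cells by 1.21 (SE 0.23, adjusted p = 6.15e-05, with 1.95% of genes called). For Cxcl10 that difference between the classes was 4.79 (SE 0.90, adjusted p = 6.47e-05).

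Antigen processing genes and class I genes gave 1 call between the genotypes in AT2 cells over both days. Of the proteases and related genes, 0 of 7 were called at either day, and Lgmn, an endosomal protease, stood at -0.55 (SE 0.16, adjusted p = 0.0657) and Ctsd at -0.38 (SE 0.13, adjusted p = 0.109) at day 21. Of the class I genes 0 of 18 were called at day 7 and 1 of 18 at day 21, where 3.75% of all genes were called. H2-D1 rose by 0.51 (SE 0.11, adjusted p = 8.40e-03). The class I median was 0.30 at day 7 and 0.34 at day 21, with 12 and 16 of 18 log2 differences above 0. H2-K1, the other classical class I heavy chain, stood at 0.41 (SE 0.13, adjusted p = 0.0712) at day 21 and B2m, the class I light chain, at -0.12. The genotype difference was called higher in AT2 than in endothelial cells for 2 of 19 class I genes at day 7, where 1.26% of genes were called. It was so for 4 of 19 at day 21, where 1.95% of genes were called. Costimulation genes were too low to be tested in AT2 cells at day 7, and at day 21 0 of 1 was called.

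Between the classes, class I, interferon gamma response and regulator genes were mostly lower in AT2 cells, while of the 7 antigen processing genes 3 were higher and 3 lower at both days. Class I genes were lower in AT2 than in endothelial cells, with 16 of 19 called lower at both days and 0 and 1 called higher. Interferon gamma response genes were lower in AT2 cells for 9 of 9 at day 7 and 7 of 8 at day 21, with log2 differences of -4.44 and -3.76 at the median. Of the regulators, 10 of 15 were lower in AT2 cells at day 7 and 8 of 13 at day 21, with Irf1 at -2.82 and -2.34, and Jak2 alone was called higher at each day, at 0.72 and 1.49. Of the other class II genes, H2-Eb2 was tested at day 7 and was higher in AT2 cells by 5.20 (SE 0.87, adjusted p = 2.24e-06). Over all genes 61.3% were called at day 7 (34.6% lower) and 67.8% at day 21 (33.6% lower).

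Between LPS and PBS in endothelial cells, where 26.9% of all genes were called, the calls were 5 of 15 regulators (33.3%), 2 of 7 antigen processing genes (28.6%), 2 of 10 interferon gamma response genes (20%), 2 of 19 class I genes (10.5%) and 0 of 3 costimulation genes. These shares lay near or below that of all genes. Among the regulators called were Irf8, a transcription factor, at 1.63 and Irf1 at -1.01 on the log2 scale. The proteases Ctsd and Ctsl fell by 0.75 and 0.43, and the class I genes H2-T23 and Tapbp by 0.64 and 0.41. Between the genotypes at day 7, Nfyb rose by 0.38 (1 of 15 regulators) and H2-T22 fell by 0.73 (1 of 19 class I genes), where 2.1% of all genes were called.

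Genes in the same stretch of chromosome 17 were counted for comparison. Between 33119541 and 35316674 lie 126 annotated genes that are no members, of which 36 were tested in AT2 cells at day 7 with 2 called (Ager and Ddah2, both higher), where 1.7% of all genes were, and 56 at day 21 with 3 called (H2-D1 higher, Rps18 and Rps28 lower), where 3.75% were. Ager, a marker of AT1 cells, was higher in Itgb1 iKO by 0.86 in AT2 cells at day 7 and by 2.41 in endothelial cells at day 21. Abca3, a lipid transporter of AT2 cells that lies 9709340 bases before the first member on chromosome 17, was higher in Itgb1 iKO in AT2 cells (0.96 at day 7, adjusted p = 1.24e-03, and 1.10 at day 21, adjusted p = 6.93e-08) and in endothelial cells (1.63, adjusted p = 0.0422, and 2.28, adjusted p = 1.05e-07). Its neighbour Abca17 was higher in AT2 cells by 4.73 (adjusted p = 1.17e-05) and 3.43 (adjusted p = 7.86e-09). In endothelial cells Abca3 stood at 135 to 244 CPM in 8 Itgb1 iKO mice and at 41.5 CPM in PBS mouse 1, beside 42.1 to 55.6 CPM in the 6 Itgb1 fl/fl mice. The AT2 markers, which include Abca3, summed to 3925 CPM in endothelial cells of Itgb1 iKO at day 21 against 893 CPM in Itgb1 fl/fl. At day 7 they summed to 1487 CPM in Itgb1 iKO LPS, 1098 CPM in Itgb1 fl/fl LPS and 378 CPM in Itgb1 iKO PBS. In PBS mice 2 and 3 endothelial Abca3 stood at 141 and 162 CPM. The part of RNA from epithelial cells in the endothelial values of Ager and Abca3 was not tested.

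The genes whose level followed the members most closely across mice were listed by Pearson r of log2(CPM + 1), as a description over mice that share libraries and, for AT2 cells, separate by genotype. Over 12 mice in AT2 cells, the summed level of H2-Aa, H2-Ab1, H2-Eb1 and Cd74 was most like Areg (0.89), Tspan1 (0.89), Icam1 (0.89), Flot1 (0.89) and Ly6e (0.89) of 5443 genes. For AT2 H2-DMb2 they were Msn (0.94), Malt1 (0.93), Myh9 (0.92), Tspan1 (0.92) and Crip2 (0.90), while H2-DMb2 and H2-Eb1 had an r of 0.16. Over 15 mice in endothelial cells the sum was most like Metap1d (0.71), Tmem199 (0.70), Bnip3 (0.68), Tspo (0.67) and Ccnh (0.65) of 6924 genes, and among the members H2-DMb1 (0.96) and H2-DMa (0.93) were closer than H2-DMb2 (0.40) and Ciita (0.47). Endothelial H2-DMb2 was most like H2-D1 (0.75), Scaf1 (0.74), Sys1 (0.72), the Y-linked gene Eif2s3y (0.70) and Abca3 (0.70), with an r of -0.11 to H2-Eb1.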

How the data were processed

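The authors deposited UMI counts per gene and barcode of 5 libraries from a 10x 5′ kit, with hashtag antibody counts beside them. The submitters' processing notes name Cell Ranger 3.1, Seurat 4.1.0 and the mm10 build. The counts came before any removal of free RNA, doublets or low-quality cells by the authors. Of the 31053 gene IDs, 30934 matched GENCODE M21 (99.6%).

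The quality limits were 700 genes or more and a mitochondrial share of 0.1 to 15%, and the cells that met them were assigned to AT2, endothelial or mesenchymal cells by the gates given above. A cell belonged to a mouse if exactly 1 hashtag in use (at least 1% of tag counts) was at least 4 times its background. Cells with several hashtags (4.91 to 14.3% of cells) were left out of the sums per mouse, and no doublet caller was run. Raw counts were summed per mouse and class, with at least 10 cells per sum, and tested with edgeR 4.0.16 (filterByExpr, TMM, quasi-likelihood test, Benjamini-Hochberg adjustment over all genes tested, threshold 0.05). The endothelial cells of day 7 were fitted with all 3 groups, and AT2 and endothelial cells were compared with the mouse as a block. LPS against PBS was not tested in AT2 or mesenchymal cells, since the PBS mice held too few of them. Single values were compared by exact two-sided permutation tests. Poisson intervals are exact at 95%, a count of 0 allows up to 3 counts, and both cover counting error only. The most similar genes were sought among genes at 20 CPM or more, with a pseudocount of 1. The named genes were the 8 members, up to 4 called genes of each list by size of change, Abca3 and Abca17, and the 5 most similar genes. The capillary markers, the RFX and NF-Y subunits, Lgmn, Ctsd, H2-K1, B2m and the called neighbours on chromosome 17 were named outside this rule, after their values had been seen. The pipeline was tested on simulated data with known changes.

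Alternatives were DESeq2 1.42.0 and its size factors, no filter on low counts, leaving out each mouse, hashtags called by a ratio of 3 to the second tag, no cells with a leukocyte UMI, no cells above 3 times the median depth of their class, at least 1000 genes and at most 10% mitochondrial UMIs, Sftpc at 2% of UMIs, and no mouse block. R 4.3.3, limma 3.58.1, Python 3.11.15, numpy 2.4.6, pandas 2.3.3, scipy 1.17.1, matplotlib 3.10.9 and Biopython 1.88 were used. The members and gene lists were chosen with earlier results of these data known.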

Additional observations from a re-analysis of the deposited data

Results flagged for a closer look

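The AT2 cells of Itgb1 iKO PBS at day 7 entered no comparison, since the library held 26 of them, of which 4, 2 and 9 were assigned to its 3 mice. The summed levels of 5 genes lay above those of AT2 cells of Itgb1 fl/fl LPS at day 7, with exact 95% Poisson intervals that did not overlap. Cd74 stood at 11752 CPM (11337 to 12179) against 7526 CPM, and H2-Aa at 1943 CPM (1776 to 2121) against 1208 CPM. H2-Ab1 stood at 748 CPM (646 to 861) against 503 CPM, and H2-Eb1 at 670 CPM (573 to 778) against 479 CPM. H2-DMb2 had 15 UMIs, 58.4 CPM (32.7 to 96.3), against 3.53 CPM (0.961 to 9.03). The other 3 genes were not apart, with H2-DMa at 70.1 against 73.2 CPM, H2-DMb1 at 202 against 160 CPM with overlapping intervals, and Ciita at 11.7 against 12.3 CPM. Mouse 1 of the PBS group, with 4 AT2 cells, had H2-Ab1 at 207 CPM and H2-Eb1 at 363 CPM, below the Itgb1 fl/fl mice of that day. The share of all genes that lie apart by this rule was not counted, so the count of 5 has no background. The intervals cover counting error only, the groups differ in genotype and in treatment, and the difference was not tested over mice.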

How the results depend on the processing

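No paired analysis was possible because, between the genotypes or treatments, the labels give no shared replicate numbers beyond 1 library each. AT2 and endothelial cells came from the same mice, and comparing them without the mouse block called 8 of 8 genes at both days. The block gave the same 8 calls, with 61.3% of all genes called at day 7 and 67.8% at day 21. In AT2 cells at day 21 the 4 calls became 1 when hashtags were called by ratio. That rule also dropped mouse 1 of Itgb1 fl/fl (under 10 AT2 cells, and leaving it out alone gave 2). The same rule lowered the AT2 cells of mouse 3 of Itgb1 iKO from 302 to 46. Without the filter on low counts the 4 calls became 7. At day 7 the 3 calls became 0 without cells holding a leukocyte UMI, where fewer members were tested. Without the filter 1 gene was called in endothelial and 1 in mesenchymal cells at day 21, and hashtags called by ratio also gave 1 in mesenchymal cells. Leaving out 1 mouse gave 0 to 3 calls in AT2 cells at day 7 and 2 to 6 at day 21, 0 to 1 in endothelial cells at day 7, 0 to 2 at day 21 and 0 to 4 for LPS against PBS. It gave 0 to 1 in mesenchymal cells at day 21, 7 to 8 between AT2 and endothelial cells at day 7, and 0 to 2 and 0 to 4 for the difference of the genotype effect between these classes at days 7 and 21.

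Directions turned only for values that had not passed. Under the stricter quality filter H2-Aa stood at -0.12 and H2-DMb1 at -0.057 in endothelial cells at day 21. In mesenchymal cells at day 7 Cd74 stood at -0.19 with hashtags called by ratio and at -0.031 without leukocyte UMIs. With 1 mouse left out, log2 differences ranged from -0.55 to 0.44 for H2-Eb1 in AT2 cells at day 7 and from -0.18 to 0.86 for Cd74 in mesenchymal cells. In endothelial cells at day 7 they ranged from -0.067 to 0.57 for Cd74, from -0.31 to 0.51 for H2-DMa, from -0.34 to 0.37 for H2-DMb1 and from -1.03 to 0.18 for H2-Eb1. At day 21 they ranged from -0.11 to 1.01 for Cd74, from -0.20 to 0.53 for H2-Aa, from -0.025 to 0.38 for H2-Ab1, from -0.078 to 0.39 for H2-DMb1 and from -0.54 to 0.26 for H2-Eb1. For LPS against PBS they ranged from -1.27 to 0.035 for H2-Aa, from -0.75 to 0.23 for H2-Ab1 and from -2.17 to 3.18 for H2-DMb2. The cause was not tested. All genes called in AT2 cells numbered 86 at day 7 (DESeq2 52, no filter 161) and 330 at day 21 (276 and 479), and in endothelial cells at day 21 130 (64 and 294). H2-DMb2 and Ciita rest on few UMIs per mouse.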
